A study of Mus musculus with 31 samples.

Results

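GABA-A receptor subunit genes were examined in RNA from the caudate putamen (CPu, the dorsal striatum) of Brd1+/- and wild type (WT) female mice. The 7 genes Gabra2, Gabra3, Gabra4, Gabra5, Gabrb1, Gabrb2 and Gabrd were chosen by name, with earlier results of these data known. They are 7 of the 52636 gene identifiers in the expression table. Values are in TPM, a transcript abundance scaled for transcript length, so that levels can be compared between genes, and for the total of each library. Comparisons between mice depend on that scaling, and the effect of another one is given where it changes a call.

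The study had 31 mice, 1 RNA-sequencing library each, labelled as strain C57BL/6NTac-Brd1 (the line C57BL/6NTac-Brd1tm1.2Arte/AborgMmucd), in which Brd1+/- animals carry 1 copy of Brd1 with a targeted deletion, and groups were matched for litter. Brd1 encodes a bromodomain protein that serves as a scaffold in histone acetyltransferase complexes. Mice were 8 to 11 weeks old and received subcutaneous saline (vehicle) or the tricyclic antidepressant imipramine (IMN, 10 mg/kg), giving 8 WT vehicle, 7 Brd1+/- vehicle, 8 WT IMN and 8 Brd1+/- IMN mice. Mice of every group, vehicle controls included, were injected on both test days and went through tail suspension, open field and forced swim tests before the right CPu was punched from frozen slices, so no group was untouched.

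GABA-A receptors are chloride channels opened by the inhibitory transmitter GABA, and each channel is assembled from several subunits, most often alpha and beta subunits with a gamma or a delta subunit. The alpha subunit sets much of a receptor's pharmacology and place in the cell. Most neurons of the striatum are themselves GABAergic medium spiny neurons, which receive inhibitory input through receptors at synapses and are also held back by receptors outside synapses that respond to ambient GABA.

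The promoters of the 4 alpha genes among the 7 are shown because the alpha genes parted in direction, with lower means of Gabra3 and Gabra5 and higher means of Gabra4 and Gabra2 in Brd1+/- than in WT mice under vehicle. The higher means missed p under 0.01 by limma. All 4 differences changed sign when 6 WT vehicle mice were set aside, as given below. A link between these windows and the directions was not tested. Each RefSeq window (build GRCm38.p6) holds 250 bases before and 50 bases after an annotated start, 300 bases in all, written 5′ to 3′ on the gene's strand with CG dinucleotides in capitals. The windows are chrX:72656870-72657169 (reverse) for Gabra3, chr7:57510010-57510309 (reverse) for Gabra5, chr5:71658259-71658558 (reverse) for Gabra4 and chr5:71095800-71096099 (reverse) for Gabra2.
Gabra3: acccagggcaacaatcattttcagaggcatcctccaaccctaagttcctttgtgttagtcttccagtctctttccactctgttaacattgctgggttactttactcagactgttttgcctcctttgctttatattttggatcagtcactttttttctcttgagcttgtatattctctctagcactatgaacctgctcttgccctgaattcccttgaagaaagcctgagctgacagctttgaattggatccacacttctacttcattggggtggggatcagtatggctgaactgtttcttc
Gabra5: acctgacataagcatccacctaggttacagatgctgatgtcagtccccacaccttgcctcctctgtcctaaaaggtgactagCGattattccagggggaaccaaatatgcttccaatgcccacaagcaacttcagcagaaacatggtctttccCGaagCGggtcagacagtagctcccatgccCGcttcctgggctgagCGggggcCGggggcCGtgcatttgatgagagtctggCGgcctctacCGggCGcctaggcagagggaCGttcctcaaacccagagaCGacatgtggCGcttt
Gabra4: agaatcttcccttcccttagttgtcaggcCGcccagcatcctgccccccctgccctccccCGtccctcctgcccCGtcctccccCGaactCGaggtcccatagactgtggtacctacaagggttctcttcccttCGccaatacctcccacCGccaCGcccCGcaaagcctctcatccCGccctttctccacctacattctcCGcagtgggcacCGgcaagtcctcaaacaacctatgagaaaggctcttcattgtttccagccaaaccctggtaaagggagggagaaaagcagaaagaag
Gabra2: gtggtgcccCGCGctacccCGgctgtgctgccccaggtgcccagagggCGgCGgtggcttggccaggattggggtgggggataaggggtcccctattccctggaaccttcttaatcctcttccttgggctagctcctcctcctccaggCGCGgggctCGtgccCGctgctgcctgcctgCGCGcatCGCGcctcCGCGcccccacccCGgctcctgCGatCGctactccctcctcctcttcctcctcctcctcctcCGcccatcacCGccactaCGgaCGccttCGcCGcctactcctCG

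The Gabra3 window held 0 CG dinucleotides, as did its second annotated window. The Gabra5 window held 13, the Gabra4 window 12 and the Gabra2 window 25, against a median of 7 and quartiles of 3 and 20 over 32817 windows of the same length. Windows were found for 6 of the 7 genes, and Gabrd is named only. The letters TATAAA, searched on both strands, were present in the Gabra3 windows and in 1 of 3 Gabrb2 windows, and 13.6% of all windows held them. A match of letters describes the window and is not a binding site.

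The 7 genes lie at 5 places in the genome (GRCm38). Gabra2 (chr5:70957597-71095849, reverse), Gabra4 (chr5:71569749-71658308, reverse) and Gabrb1 (chr5:71658113-72149037, forward) share a cluster with Gabrg1. Gabra4 and Gabrb1 overlap by 196 bases on opposite strands, of which 46 are exonic in both, 0.756% of the exonic bases of Gabra4. Reads from these bases could not be assigned to either gene unless the libraries kept the strand, which is not given in the sources used here. Gabra5 (chr7:57407672-57510059, reverse) lies beside Gabrg3. Gabrb2 (chr11:42419757-42629028, forward) lies beside Gabra6, Gabra3 (chrX:72432681-72656848, reverse) is X-linked, and Gabrd (chr4:155384980-155398112, reverse) has no other GABA-A gene nearby.

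Some punches stood apart before any subunit was considered. Brd1 itself averaged 22.5 ± 2.97 TPM (SD, n = 8) in WT vehicle and 13.4 ± 2.02 (n = 7) in Brd1+/- vehicle mice, and 19.9 ± 2.67 (n = 8) in WT IMN and 12.8 ± 1.04 (n = 8) in Brd1+/- IMN mice, so genotype labels and Brd1 level matched. The 10 cortical excitatory neuron markers (among them Slc17a7, Neurod6, Neurod2, Tbr1, Emx1 and Fezf2) summed to between 119 and 2375 TPM in WT vehicle mice, with a median of 1653. Their sums were 125 to 358 in Brd1+/- vehicle, 108 to 1356 in WT IMN and 108 to 532 in Brd1+/- IMN mice, and no marker was at 0 in all mice of any group. The 10 medium spiny neuron markers, which include Drd1, Drd2 and Ppp1r1b, summed to 286 to 10406 TPM in WT vehicle, 8457 to 9809 in Brd1+/- vehicle, 5033 to 9277 in WT IMN and 6840 to 9706 in Brd1+/- IMN mice. The cortical score, the mean log2(TPM + 1) of the 10 cortical markers, was above 5 in 6 WT vehicle mice (1, 2, 3, 4, 5 and 7) and 2 WT IMN mice (5 and 8), and under 5 in the other 23. In WT vehicle mice 1 and 2 it was above the striatal score made the same way. WT vehicle mouse 7, labelled female, had 26.8 TPM summed over 4 Y-linked genes, against at most 0.188 in any other mouse.

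All 7 genes were detected in every mouse. Over the 31 mice Gabra4 averaged 92.3 TPM and Gabrd 78.5, followed by Gabra2 at 40.7, Gabrb2 at 36.3, Gabra3 at 27.1, Gabra5 at 25.1 and Gabrb1 at 17.6. Their variation was very unequal. The coefficient of variation over all mice was 75.8% for Gabra3 and 55.6% for Gabra5, and between 17.8% for Gabra2 and 27.2% for Gabrb2 in the other 5 genes.

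**Figure D1:**
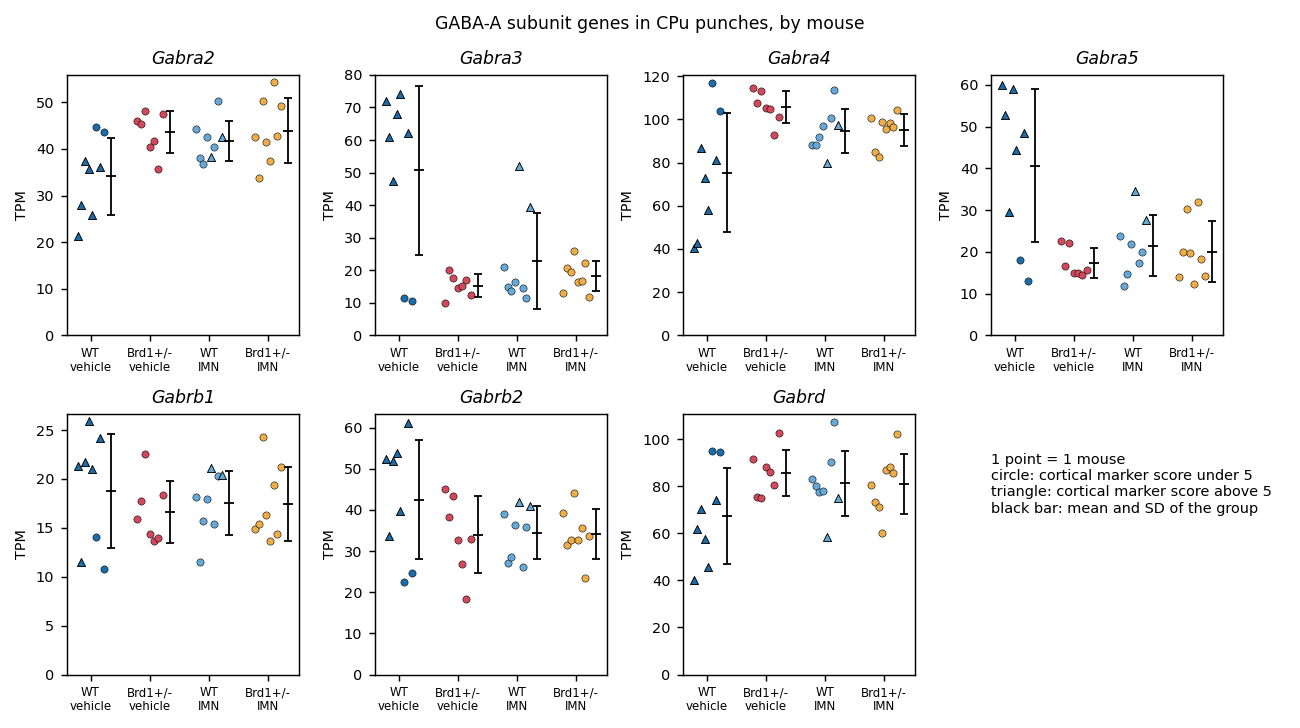
Level of each of the 7 subunit genes (y axis, TPM) in each of the 31 mice by group, with the mean and SD of the group as black bars and triangles for mice with a cortical marker score above 5. The triangles among WT vehicle mice reach 47.3 to 74.1 TPM in Gabra3, whereas the 2 circles of that group lie at 10.5 and 11.3.

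Under vehicle, Gabra3 and Gabra5 were lower in Brd1+/- than in WT mice at p under 0.01, the nominal threshold by which genes are called here, Gabra4, Gabra2 and Gabrd had higher means that missed it, and the beta genes differed by less than the spread between mice. Gabra3 fell by 1.41 ± 0.41 (SE) and Gabra5 by 1.04 ± 0.29 on the log2(TPM + 1) scale, a scale on which the change of low genes is understated. In each of the 7 genes the difference changed sign when the mice with a cortical score above 5 were set aside, and no gene was then called. This comparison asks what loss of 1 Brd1 copy does to CPu expression in injected and behaviourally tested animals given no drug. In bulk tissue, fewer cells of a type and less RNA per cell cannot be told apart.

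Gabra3 encodes the alpha3 subunit, a synaptic subunit known from cortex and from monoaminergic neurons. Its level in the 8 WT vehicle mice ran from 10.5 TPM through a median of 61.5 to 74.1. In the 7 Brd1+/- vehicle mice it ran from 9.78 through 15.1 to 20.2. Thus 6 of 8 WT mice lay above every Brd1+/- mouse, while WT mice 6 and 8 lay within the Brd1+/- range and the groups overlapped. The Brd1+/- mean of 15.2 ± 3.46 TPM was 30.0% of the WT mean of 50.8 ± 25.9 (limma, adjusted p = 0.0556 over 23200 genes). In the 6 WT vehicle mice with a cortical score above 5 the mean was 64.0 TPM, and in the other 2 it was 10.9.

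Gabra5 encodes the alpha5 subunit, which is found mainly outside synapses and is best known from hippocampus. WT vehicle mice had 12.9, 46.5 and 60.1 TPM as lowest, median and highest values, and Brd1+/- vehicle mice 14.4, 15.7 and 22.6. The groups overlapped in the same manner, 6 WT mice lying above all Brd1+/- mice and WT mouse 8 below all of them. The Brd1+/- mean of 17.3 ± 3.53 TPM was 42.5% of the WT mean of 40.7 ± 18.3 (limma, adjusted p = 0.0556). WT vehicle mice with a score above 5 averaged 49.1 TPM, and the other 2 averaged 15.5.

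Gabra4 encodes the alpha4 subunit, which pairs with delta in receptors that carry tonic inhibition outside synapses. Its level was 40.2 to 117 TPM with a median of 77.0 in WT vehicle mice, and 92.6 to 115 with a median of 105 in Brd1+/- vehicle mice. Of the WT mice, 6 lay under every Brd1+/- mouse, and WT mouse 6 had the highest level of both groups. The log2 fold change was 0.57 ± 0.20 (limma, adjusted p = 0.0768). Gabra2, whose alpha2 subunit sits at synapses of medium spiny neurons, ran from 21.3 through 35.9 to 44.7 TPM in WT vehicle and from 35.7 through 45.5 to 48.2 in Brd1+/- vehicle mice. Here 4 WT mice lay below all Brd1+/- mice and none above (log2 fold change 0.38 ± 0.14, limma, adjusted p = 0.0922).

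Gabrd encodes the delta subunit that partners alpha4. It had 39.9, 66.2 and 94.8 TPM as lowest, median and highest values in WT vehicle mice and 74.997, 86.0 and 102.4 in Brd1+/- vehicle mice. As for Gabra4, 6 WT mice lay below every Brd1+/- mouse, and the other 2 lay inside the Brd1+/- range. The log2 fold change was 0.39 ± 0.17 (limma, adjusted p = 0.126).

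The beta subunits form part of the GABA binding site with alpha and are needed for assembly. Gabrb2 was 22.6 to 61.2 TPM with a median of 45.8 in WT vehicle mice and 18.3 to 45.1 with a median of 32.9 in Brd1+/- vehicle mice. Gabrb1 was 10.8 to 25.9 TPM with a median of 21.1 in WT vehicle and 13.6 to 22.5 with a median of 15.9 in Brd1+/- vehicle mice. The groups overlapped for both genes, with 4 of 8 WT mice above every Brd1+/- mouse and none below for Gabrb2, and 2 above and 2 below for Gabrb1. The log2 fold changes were -0.29 ± 0.23 for Gabrb2 (limma, adjusted p = 0.413) and -0.12 ± 0.19 for Gabrb1 (limma, adjusted p = 0.686).

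In all, 2 of the 7 genes were lower and 0 higher at p under 0.01 in vehicle mice, where 13.6% of the 23200 genes tested passed that threshold, 12.1% lower and 1.47% higher. At a false discovery rate (FDR) of 5%, no gene of the table passed in this comparison by limma, although 30.9% of genes had an unadjusted p under 0.05. Brd1 shared the adjusted p of 0.0556 with Gabra3 and Gabra5. Their unadjusted p by limma were 3.92e-06 for Brd1, 0.00332 for Gabra3 and 0.00258 for Gabra5. The median log2 fold change was -0.12 over the 7 genes and -0.13 over all genes tested. Median-of-ratios scaling, which brought the median of all genes to 0.0023, raised the count to 4 genes, with Gabra2 and Gabra4 higher beside Gabra3 and Gabra5 lower, against 9.22% of all genes called, 5.2% lower and 4.01% higher. Under that scaling the log2 fold changes were -1.22 for Gabra3, -0.85 for Gabra5, 0.76 for Gabra4 and 0.56 for Gabra2.

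Setting aside the 6 WT vehicle mice with a cortical score above 5, an exclusion chosen after seeing the data, left 2 WT and 7 Brd1+/- mice and 0 subunit genes at p under 0.01, where 0.892% of 21080 genes passed. The log2 fold change became 0.42 ± 0.22 for Gabra3, 0.14 ± 0.20 for Gabra5, -0.06 ± 0.09 for Gabra4, -0.02 ± 0.12 for Gabra2 and -0.15 ± 0.12 for Gabrd. The beta genes were at 0.39 ± 0.18 for Gabrb1 and 0.45 ± 0.27 for Gabrb2. With the cortical score as a covariate over all 15 mice, Gabra3 was lower at p under 0.01 (-0.41 ± 0.08, limma, adjusted p = 0.23), and the other 6 genes were not called, with 2.03% of all genes called. No vehicle mouse had a cortical score between 3.98 and 5.57, and the 6 above this gap were all WT. The covariate therefore rests on a straight line across the gap. With the striatal score as a covariate no subunit gene was called, with 1.29% of all genes, and Gabra3 stood at -0.83. Without WT vehicle mice 1 and 2 none was called either, with 5.89% of all genes, and Gabra3 stood at -1.19. Without the WT vehicle mouse that had Y-linked reads, Gabra3 was at -1.33 (limma, adjusted p = 0.0991) and Gabra5 at -0.98 (limma, adjusted p = 0.0976). Leaving out WT vehicle mouse 6 or 8, the 2 with low cortical scores, raised the count to 5, with Gabra2, Gabra4 and Gabrd called higher, while the share of all genes called rose to 19.9% without mouse 6 and 22.4% without mouse 8. Without either mouse these 5 genes also passed the FDR of 5%, as did 19.9% and 23.8% of all genes.

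**Figure D2:**
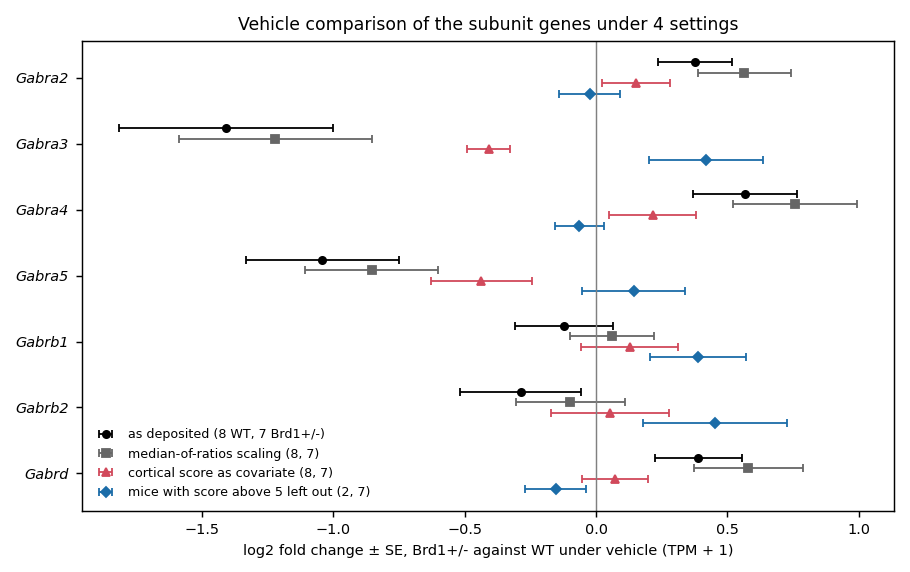
Log2 fold change of each subunit gene (x axis, Brd1+/- against WT under vehicle, TPM + 1) with its SE under 4 settings. Gabra3 lies at -1.41 as deposited, at -0.41 with the cortical score as a covariate and at 0.42 without the mice whose score was above 5.

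Under IMN, none of the 7 genes differed between the genotypes at p under 0.01 or p under 0.05 by limma, where 0.703% and 3.92% of 23339 genes passed and 1 gene of the table (0.00428%), Brd1, passed the FDR of 5% (log2 fold change -0.60, adjusted p = 0.0396). This comparison addresses the genotype difference in treated animals. Gabra3 ran from 11.3 through 15.6 to 52.1 TPM in WT IMN mice and from 11.8 through 18.1 to 25.9 in Brd1+/- IMN mice. The 2 WT mice above the Brd1+/- range, mice 5 and 8, were the ones with a cortical score above 5, and they averaged 45.7 TPM against 15.3 in the other 6. The log2 fold change of Gabra3 was -0.16 ± 0.27 (limma, adjusted p = 0.998), and 0.23 without mice 5 and 8.

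Gabra5 was 11.8 to 34.6 TPM with a median of 20.9 in WT IMN and 12.3 to 31.9 with a median of 18.9 in Brd1+/- IMN mice. Gabra4 was 79.7 to 114 TPM with a median of 94.5 in WT IMN and 82.7 to 104 with a median of 97.4 in Brd1+/- IMN mice. Both genes overlapped over nearly their whole range. The log2 fold changes of the other 6 genes lay between -0.10 for Gabra5 and 0.07 for Gabra2, and Gabra4 was at 0.01 ± 0.07. The SE was 0.22 for Gabra5, so that a difference of this size could not have been told from 0.

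In WT mice, Gabra3 and Gabra5 had lower means under IMN than under vehicle and Gabra4 and Gabra2 had higher ones, but none of the 7 genes reached p under 0.01 by limma, where 6.95% of 23579 genes did, 5.6% lower and 1.35% higher. The comparison asks what the drug does in animals with both Brd1 copies, and 1 gene of the table (0.00424%) passed the FDR of 5%. At an unadjusted p under 0.05 there were 4 of the 7 genes, with 23.1% of all genes tested. The WT vehicle mice are the reference of this comparison and of the genotype comparison under vehicle, so the values are set side by side and are not independent. Gabra5 had a log2 fold change of -0.79 ± 0.30 (limma, adjusted p = 0.159) and Gabra3 of -1.02 ± 0.44 (limma, adjusted p = 0.188). Gabra2 was at 0.31 ± 0.13 (limma, adjusted p = 0.178) and Gabra4 at 0.41 ± 0.19 (limma, adjusted p = 0.21).

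The mean of Gabra5 was 21.4 ± 7.32 TPM in WT IMN mice, 52.7% of the WT vehicle mean, and that of Gabra3 was 22.9 ± 14.8, 45.1% of it. For each gene, 5 WT vehicle mice lay above all WT IMN mice, and the groups overlapped. Gabrd was at 0.31 ± 0.17 and ran from 58.5 through 79.1 to 107 TPM in WT IMN mice, Gabrb2 was at -0.24 ± 0.20 and Gabrb1 at -0.05 ± 0.18. The median over the 7 genes was -0.05, beside -0.08 over all genes. Without the mice with a cortical score above 5 (2 WT vehicle and 6 WT IMN mice left), Gabra3 was at 0.43, Gabra5 at 0.20, Gabra4 at -0.19 and Gabra2 at -0.07, each opposite in sign to the value over all 16 mice. Without WT vehicle mouse 6 or 8, Gabra3 and Gabra5 passed p under 0.01 and the other 5 genes did not, while the share of all genes called rose to 13.6% and 15.3%. Without mouse 8 both genes also passed the FDR of 5%, with 10.5% of all genes.

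In Brd1+/- mice, where no punch had a cortical score above 5, IMN was accompanied by small differences. None of the 7 genes passed p under 0.01 by limma, where 1.83% of 23020 genes did, and no gene of the table passed the FDR of 5%. At an unadjusted p under 0.05 there was 1, with 7.09% of all genes. Gabra4 had the smallest p. Its levels were 92.6 to 115 TPM under vehicle and 82.7 to 104 under IMN, and 5 of 7 vehicle mice lay above every IMN mouse. The mean of 95.2 ± 7.51 TPM under IMN was 90.2% of the vehicle mean of 105.6 ± 7.44 (log2 fold change -0.15 ± 0.06, limma, adjusted p = 0.648).

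Without Brd1+/- vehicle mouse 6, which had the lowest Gabra4 of its group, this difference passed p under 0.01, with 1.74% of all genes. Gabra3 was at 0.24 ± 0.17 and Gabra5 at 0.15 ± 0.19, and the remaining 4 genes lay between -0.09 for Gabrd and 0.06 for Gabrb1. With the cortical score as a covariate Gabra3 passed p under 0.01, with 2.14% of all genes, at 0.26 ± 0.09 (limma, adjusted p = 0.466), and with the striatal score as a covariate it was at -0.17.

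**Figure D3:**
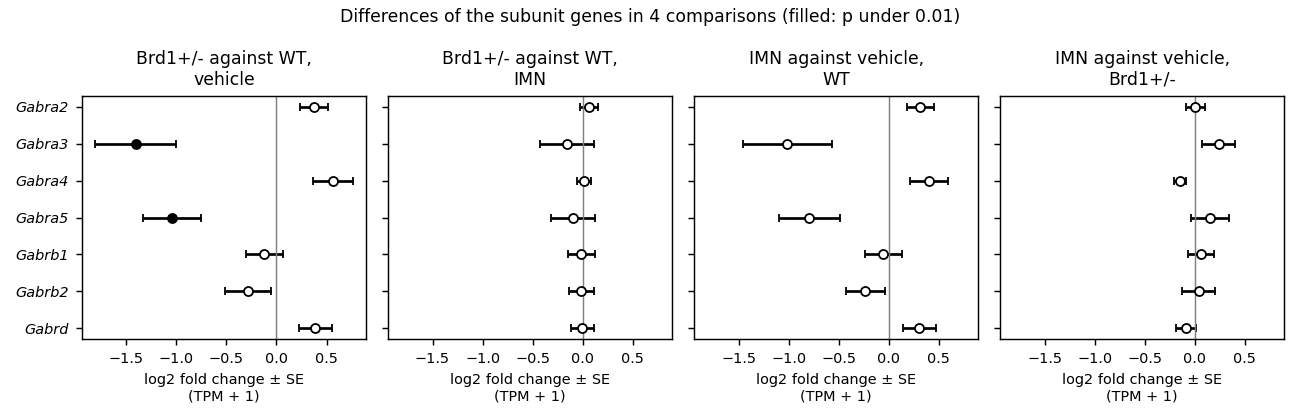
Log2 fold change (x axis, TPM + 1) and SE of the 7 subunit genes in the 4 comparisons of 2 groups, filled where p was under 0.01. Filled points appear for Gabra3 and Gabra5 in the vehicle comparison, at -1.41 and -1.04, and in no other panel.

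The effect of IMN in Brd1+/- mice minus that in WT mice was tested as an interaction over all 31 mice. None of the 7 genes passed p under 0.01 by limma, where 3.74% of 25394 genes did, and 3 passed an unadjusted p under 0.05, with 16.2% of all genes. The difference was -0.55 ± 0.21 for Gabra4 (limma, adjusted p = 0.261), 0.94 ± 0.38 for Gabra5 (limma, adjusted p = 0.263) and 1.25 ± 0.51 for Gabra3 (limma, adjusted p = 0.263). Without the mice with a cortical score above 5 the same differences were 0.04, -0.05 and -0.19. These 3 genes passed p under 0.01 without WT vehicle mouse 6 or 8, where 9.28% and 10.2% of all genes did. Gabra4 alone passed without WT vehicle mouse 3, with 4.09% of all genes, and Gabra3 and Gabra5 passed without WT IMN mouse 5, with 6.62%. In order of group means, Gabra3, Gabra5, Gabrb1 and Gabrb2 were highest in WT vehicle mice, then WT IMN, Brd1+/- IMN and Brd1+/- vehicle mice. Gabra4, Gabra2 and Gabrd were lowest in WT vehicle mice. The step between WT vehicle and the next group exceeded the smaller of both SDs in every gene but Gabrb1. Among the other 3 groups, neighbours differed by less than the SD of either, except that Gabra4 was 10.4 TPM higher in Brd1+/- vehicle than in Brd1+/- IMN mice.

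The make-up of the summed TPM of the 7 genes was computed within each mouse, as a share that does not depend on scaling between mice. In Brd1+/- vehicle mice, Gabra4 made 33.3 ± 1.28% (SD, n = 7) of the sum, Gabrd 27.0 ± 3.28%, Gabra2 13.7 ± 0.554%, Gabra5 5.41 ± 0.774% and Gabra3 4.85 ± 1.26%. In WT vehicle mice, the shares were 22.9 ± 8.55% for Gabra4, 20.6 ± 6.71% for Gabrd, 10.4 ± 2.60% for Gabra2, 12.4 ± 5.68% for Gabra5 and 15.4 ± 8.13% for Gabra3 (n = 8). The share of Gabra4 in this group ranged from 13.1% to 36.3%. In WT vehicle mice 6 and 8 Gabra4 made 36.3% and 34.5% and Gabra3 3.51% and 3.48%, near the Brd1+/- values. In WT vehicle mouse 1 Gabra3 made 23.4% and Gabra5 19.6%.

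In WT IMN and Brd1+/- IMN mice Gabra4 made 30.3 ± 3.10% and 30.8 ± 2.19% of the sum (n = 8 each), and Gabrd 26.0 ± 4.26% and 26.1 ± 3.54%. WT IMN mice 5 and 8 had the lowest Gabrd shares of that group, at 17.9% and 21.8%. The summed TPM of the 7 genes differed between groups by less than the SD of each group, at 330 ± 35.3, 318 ± 25.2, 314 ± 29.8 and 310 ± 21.2 for WT vehicle, Brd1+/- vehicle, WT IMN and Brd1+/- IMN mice.

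**Figure D4:**
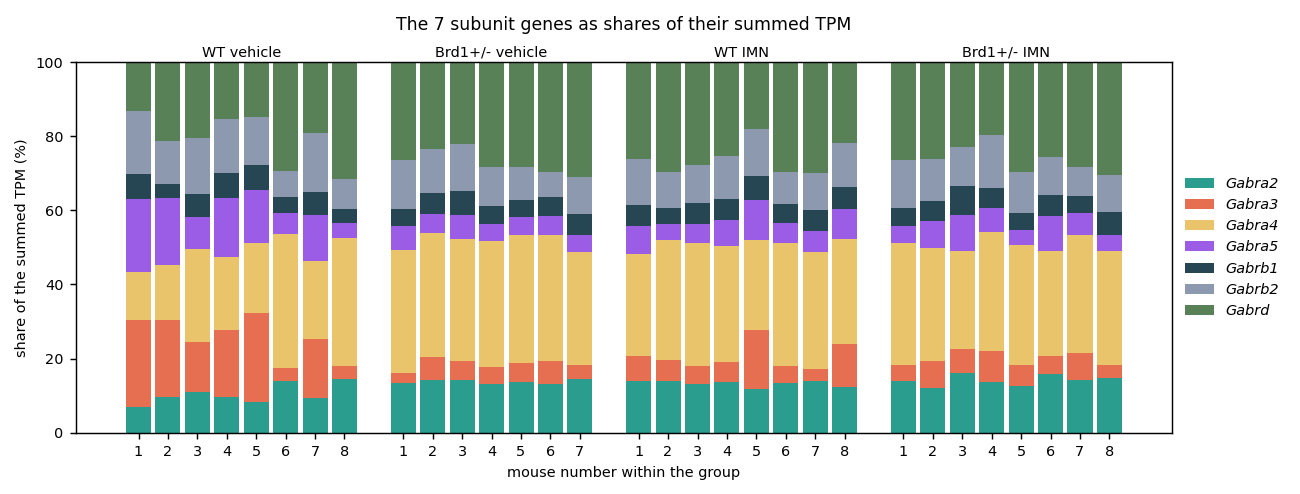
Share of the summed TPM of the 7 subunit genes (y axis, %) held by each gene in every mouse, by group and mouse number. WT vehicle mice 6 and 8 show bars like those of Brd1+/- mice, with Gabra4 at 36.3% and 34.5%, and WT vehicle mouse 1 has the lowest Gabra4 share of that group at 13.1%.

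The mice were split at a cortical score of 5, a limit set after seeing the data. The relation of each gene to the cortical and striatal scores was computed within the 23 mice under it and the 8 mice above it. Of 28 relations in all, 8 had a permutation p under 0.01 for Pearson's r. By limma, the slope on the cortical score had p under 0.01 in 4.11% of genes over the 23 mice and 8.33% over the 8. For the striatal score these shares were 6.2% and 14.5%. Gabra3 tracked the cortical score. Over the 23 mice, Pearson's r was 0.831 and Spearman's rho 0.836 (permutation p = 1e-05 for both, the smallest that 100000 resamples can give), and r was 0.770 without the 2 mice farthest from the median score. Its slope of 0.32 ± 0.05 log2 units per unit of score had an adjusted p of 9.41e-05 over 24285 genes by limma, where 1.55% of genes passed the FDR of 5%. Over the 8 mice above 5, r was 0.902 (exact permutation p = 0.0034) and rho 0.690 (p = 0.0694), with a slope of 0.60 ± 0.12 and an adjusted p of 0.0492 by limma, where 1.69% of genes passed the FDR of 5%. Without the 2 farthest mice r was 0.620 (exact permutation p = 0.186, n = 6), in the same direction but no longer detected.

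Gabrd ran the other way over the 23 mice, with r = -0.558 for the cortical score (permutation p = 0.00513, rho = -0.541 with p = 0.00891) and r = -0.473 without the 2 farthest mice. Its cortical slope had an adjusted p of 0.156 by limma. With the striatal score Gabrd had r = 0.622 (permutation p = 0.00129, rho = 0.582 with p = 0.00406), r = 0.580 without the 2 farthest mice and an adjusted slope p of 0.0609. Gabra3 had r = -0.765 with the striatal score (permutation p = 4e-05, rho = -0.706 with p = 0.00029), r = -0.737 without the 2 farthest mice and an adjusted slope p of 0.0062. Over the 8 mice above 5 these relations had no exact permutation p under 0.1 for r. There Gabrd had r = -0.585 with the cortical score (exact permutation p = 0.128, rho = -0.643 with p = 0.0962, r = -0.248 without the 2 farthest) and r = 0.372 with the striatal score (exact permutation p = 0.377, rho = 0.667 with p = 0.0831, r = 0.862 without the 2 farthest). Gabra3 had r = -0.463 with the striatal score (exact permutation p = 0.252, rho = -0.738 with p = 0.0458, r = -0.946 without the 2 farthest).

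No relation of Gabra5 to the cortical score was detected over the 23 mice (r = 0.0859, permutation p = 0.697, rho = 0.194 with p = 0.375, r = 0.0525 without the 2 farthest), whereas over the 8 mice above 5 r was 0.930 (exact permutation p = 0.00131, rho = 0.905 with p = 0.00456) and 0.828 without the 2 farthest, with an adjusted slope p of 0.0287 by limma, where 1.69% of genes passed the FDR of 5%. With the striatal score it had r = -0.554 over the 23 mice (permutation p = 0.00629, rho = -0.418 with p = 0.0488), r = -0.472 without the 2 farthest mice and an adjusted slope p of 0.109. Among the 8 mice above 5, r was -0.604 with that score (exact permutation p = 0.0985, rho = -0.833 with p = 0.0154) and -0.744 without the 2 farthest. Whether these slopes differ between the 2 sets of mice was not tested. Gabra4 had r = 0.517 with the striatal score over the 23 mice (permutation p = 0.0118, rho = 0.558 with p = 0.00647) and r = 0.619 without the 2 farthest. Within Brd1+/- vehicle mice, however, r was -0.556 and rho -0.893 (n = 7), opposite in sign to the 0.431 in Brd1+/- IMN, 0.676 in WT IMN and 0.891 in WT vehicle mice (each group whole, n = 8), so that this relation does not hold within every group. The relations of Gabra3 and Gabrd to both scores and of Gabra5 to the striatal score kept their sign within each of the 4 groups. Over the 8 mice Gabra4 had r = 0.879 (exact permutation p = 0.00188, rho = 0.952 with p = 0.00114) and 0.977 without the 2 farthest, with an adjusted slope p of 0.0139 by limma, where 11.4% of genes passed the FDR of 5%. With the cortical score Gabra4 had r = -0.254 over the 23 mice (permutation p = 0.239, rho = -0.271 with p = 0.211, r = -0.258 without the 2 farthest). Over the 8 mice it had r = -0.838 (exact permutation p = 0.0114, rho = -0.929 with p = 0.00223) and -0.790 without the 2 farthest, with an adjusted slope p of 0.0615 by limma. For Gabrb1 and Gabrb2 no relation over the 23 mice had a permutation p under 0.2, and r lay between -0.276 and 0.104. Over the 8 mice Gabrb1 had r = 0.828 with the striatal score (exact permutation p = 0.0659, rho = 0.167 with p = 0.703) and an adjusted slope p of 0.0432 by limma, but r was -0.269 without the 2 farthest mice, so that this slope rests on them.

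Gabra2 had no relation with a permutation p under 0.1 over the 23 mice. Over the 8 mice it rose with the striatal score by rank (rho = 0.905, exact permutation p = 0.00456), with r = 0.674 (p = 0.0565) and r = 0.919 without the 2 farthest mice, and its adjusted slope p was 0.141 by limma. With the cortical score it had r = -0.772 there (exact permutation p = 0.0217, rho = -0.857 with p = 0.0107) and -0.679 without the 2 farthest mice.

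**Figure D5:**
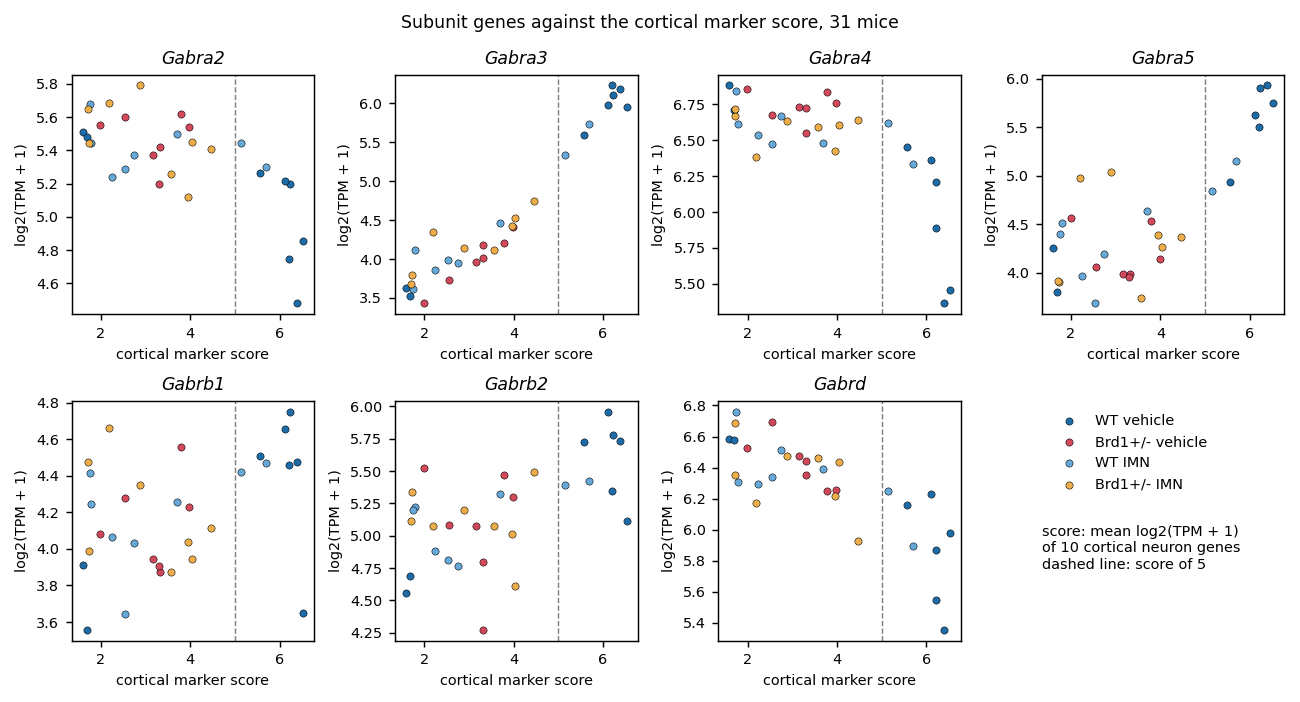
Log2(TPM + 1) of each subunit gene (y axis) against the cortical marker score (x axis) in 31 mice coloured by group, with a dashed line at a score of 5. Gabra3 rises along the axis on both sides of the line, with r = 0.831 among the 23 mice to its left, whereas Gabra5 has r = 0.0859 on that side.

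A further 9 GABA-A subunit genes were read in the same fits, of which 4, Gabrg1, Gabrg3, Gabrq and Gabrr2, passed the filter on low values in each comparison of 2 groups. None of the 4 was called at p under 0.01 by limma, and 1, Gabrq under vehicle, passed an unadjusted p under 0.05 (log2 fold change -0.15 ± 0.07, limma, adjusted p = 0.142), where 13.6% and 30.9% of all genes passed these thresholds. The median log2 fold change of the 4 under vehicle was -0.05, beside -0.13 over all genes. Gabrg3, which encodes a gamma subunit, had the highest level of the 4, with means of 16.8 ± 3.37 TPM in WT vehicle, 17.5 ± 2.00 in Brd1+/- vehicle, 19.6 ± 2.69 in WT IMN and 19.5 ± 2.78 in Brd1+/- IMN mice. Its groups overlapped, and its log2 fold change was 0.08 ± 0.13 between genotypes under vehicle (limma, adjusted p = 0.716). Gabrg1 averaged 5.03 ± 1.19 TPM in WT vehicle and 5.17 ± 0.99 in Brd1+/- vehicle mice. Gabra6, Gabrp, Gabrr1 and Gabrr3 were listed at 0 in at least 28 of 31 mice.

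Of 20 GABA synapse genes, all tested, 1 was lower and 3 were higher at p under 0.01 in Brd1+/- than in WT mice under vehicle, beside 12.1% and 1.47% of all genes, and 16 were not called. By sign alone, 10 had a negative and 10 a positive log2 fold change. With median-of-ratios scaling 1 was lower and 8 were higher, beside 5.2% and 4.01% of all genes. Gabbr2, a subunit of the metabotropic GABA-B receptor, fell by 1.42 ± 0.39 (limma, adjusted p = 0.0556), with means of 115 TPM in WT and 34.6 in Brd1+/- mice. Gad2, which makes GABA from glutamate, Slc32a1, which loads it into vesicles, and Abat, which breaks it down, rose by 0.66 ± 0.21, 0.71 ± 0.24 and 0.50 ± 0.16 (adjusted p = 0.0635, 0.0702 and 0.0659 by limma). The median of the list was -0.04, beside -0.13 over all genes. Without the mice with a cortical score above 5, Gabbr2 was higher instead (0.37 ± 0.11), Gad2 was at 0.07, Slc32a1 at -0.08 and Abat at -0.06. In WT mice, 3 of the 20 genes were called for IMN against vehicle, 1 lower and 2 higher, beside 5.6% and 1.35% of all genes, and with median-of-ratios scaling 0 were lower and 4 higher, beside 3.11% and 2.86%. Gad2 and Abat were higher (0.73 ± 0.21 and 0.47 ± 0.16) and Gabarapl1, related to the receptor trafficking factor GABARAP, was lower (-0.20 ± 0.06), each with an adjusted p of 0.141 by limma. Without the mice with a score above 5 these values were 0.23, -0.02 and -0.18. No gene of either list was called in Brd1+/- mice for IMN or between genotypes under IMN, where 1.83% and 0.703% of all genes were.

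The genes most alike in pattern over the 31 mice, among 12165 genes with a mean of at least 5 TPM, differed by subunit. For Gabra3 they were Efhd2 (Pearson's r = 0.987), Ube2ql1 (0.984) and Ppm1e (0.982), and for Gabra5 they were Nicn1 (0.952), Rab8b (0.950) and Polr2m (0.944). For Gabra4 they were Spock3 (0.979), Kcnd2 (0.977) and Ppp4r4 (0.969), and for Gabra2 they were Sowaha (0.904), Calb1 (0.903) and Isoc1 (0.889). For Gabrd they were Ajap1 (0.914), Fam20c (0.899) and again Calb1 (0.896). Among the genes nearest to Gabrb1 were Hif1a (0.892) and Trim44 (0.883), and Gabrb2 was nearest to Psd3 (0.904), Zyg11b (0.904) and Senp5 (0.902). Among the 7 genes, Gabra3 and Gabra5 went together (0.861), as did Gabra4 with Gabra2 (0.855) and Gabrd (0.806), and Gabra3 went against Gabrd (-0.847). These coefficients describe the libraries and all of them share the split between mice in cortical score.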

How the data were processed

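RNA from 31 right CPu punches was sequenced by the study as single-end reads on BGISEQ-500. Per the methods and the submitters' processing notes, the authors aligned reads to GRCm38 with HISAT2 2.1.0 and quantified genes with StringTie 1.3.4, and deposited one table of TPM with a column per mouse, in which 0 columns were unused. Columns sum to between 999787 and 999918, so the read depth of each library, for which the study's methods set only a minimum shared by all samples, is unknown from the table and no counting interval is given. Ensembl identifiers were matched to symbols for 52403 of 52636 rows.

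The study's count test was not run because TPM are not counts. Instead, log2(TPM + 1) was fitted with limma 3.58.1 (R 4.3.3, empirical Bayes with a mean trend, two-sided), each comparison on its own groups and the interaction on all 4, keeping genes above 0.1 TPM in at least 7 mice. A gene was called at p under 0.01, the study's nominal threshold, and p was adjusted by Benjamini-Hochberg over all genes tested, with an FDR of 5%. The fit was tested on simulated data. Correlations used 100000 permutations, or all permutations for 8 mice. They were computed within the mice under and above a cortical score of 5, in place of the planned fit over all mice. Strandedness of the libraries is not given in the sources used here.

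Named genes are the 7 members in full, Brd1 throughout, up to 4 genes per list and comparison at p under 0.01, and the 3 nearest genes of each member. The members, the lists and the rules were chosen with earlier results of these data known. Some further genes are not reported here. The other subunit genes are named outside this rule, after their values were seen. The exclusion of mice with a cortical score above 5 was also set after seeing the data. Replicates are separate mice. Alternatives covered the pseudocount (0.1), the filter (mean TPM of at least 1, or none), median-of-ratios and quantile scaling, moderation, sample weights, a block on the mouse number, all 4 groups in one fit, marker score covariates and leaving out mice.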

Additional observations from a re-analysis of the deposited data

Results flagged for a closer look

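No single mouse lay far enough from its group to pass Dixon's limit in 32 combinations of gene and group (the 7 subunit genes and Brd1 in 4 groups). Chance would pass about 1 in 20. The limit uses the gap between the outermost mouse and its nearest neighbour, so it misses 2 mice that lie apart together. WT vehicle mice 6 and 8 did so in Gabra3, at 10.5 to 11.3 TPM, against 47.3 to 74.1 in the other 6. The absence of a flagged mouse therefore does not show that the groups were uniform.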

How the results depend on the processing

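In the genotype comparison under vehicle, 65 of 91 alternative values for single genes kept their direction and their side of the threshold, as did 72 of 84 under IMN, 75 of 91 for IMN in WT mice, 66 of 77 for IMN in Brd1+/- mice and 69 of 84 for the interaction. Counts of genes at p under 0.01 and the values that changed direction follow, and the cause of these changes was not tested.

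Under vehicle the count of 2 genes became 4 with median-of-ratios scaling, 5 with quantile normalization, 5 with sample quality weights, 4 with all 4 groups in one fit (9.22%, 9.53%, 26.5% and 19.7% of all genes, against 13.6%) and 1 with the cortical score as a covariate. It became 0 with the striatal score as a covariate, 0 without mice whose cortical score was above their striatal score and 0 without mice whose cortical score was above 5, an exclusion chosen after seeing the data. With that exclusion the log2 fold changes were -0.024 for Gabra2, 0.42 for Gabra3, -0.063 for Gabra4, 0.14 for Gabra5, 0.39 for Gabrb1, 0.45 for Gabrb2 and -0.15 for Gabrd. Gabrb1 was at 0.061 with median-of-ratios scaling, 0.076 with quantile normalization and 0.13 with the cortical covariate, which put Gabrb2 at 0.054. The FDR of 5% was passed by the same 5 genes with quality weights (29.5% of all genes), by the same 4 in the fit of 4 groups (19.5%) and by Gabra3 and Gabra5 without genes of a mean under 1 TPM (10.5%). Leaving out 1 mouse gave counts of 2 to 5, with 5 without WT vehicle mouse 6 or 8 and 3 without WT vehicle mouse 3 (12.4% of all genes).

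Under IMN, Gabrb1, Gabrb2 and Gabrd were at 0.030, 0.030 and 0.042 with median-of-ratios scaling and at 0.035, 0.030 and 0.043 with quantile normalization, and Gabrb2 was at 0.013 with quality weights. Without mice above a cortical score of 5, Gabra3 was at 0.23, Gabra4 at -0.019, Gabra5 at 0.095, Gabrb1 at 0.072 and Gabrb2 at 0.080. Leaving out 1 mouse gave -0.27 to 0.035 for Gabra3, -0.021 to 0.051 for Gabra4, -0.20 to 0.0070 for Gabra5, -0.091 to 0.031 for Gabrb1, -0.068 to 0.058 for Gabrb2 and -0.066 to 0.057 for Gabrd.

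For IMN in WT mice the count of 0 became 2 with quality weights and 3 with all 4 groups in one fit (20.3% and 13.5% of all genes, against 6.95%), of which the 2 with quality weights passed the FDR of 5% (20.6% of all genes), and 0 to 2 when 1 mouse was left out. Gabrb1 was at 0.068 with median-of-ratios scaling, 0.079 with quantile normalization, 0.17 with the cortical covariate and -0.15 to 0.025 when 1 mouse was left out, and the cortical covariate put Gabrb2 at 0.084. Without mice above a cortical score of 5 the values were -0.075 for Gabra2, 0.43 for Gabra3, -0.19 for Gabra4, 0.20 for Gabra5, 0.37 for Gabrb1, 0.41 for Gabrb2 and -0.15 for Gabrd.

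For IMN in Brd1+/- mice the count of 0 became 1 with the cortical covariate, and 0 to 1 when 1 mouse was left out. Gabra2 was at -0.010 with median-of-ratios scaling, -0.020 with quality weights, -0.0046 with the cortical covariate and -0.041 with the striatal covariate. The striatal covariate also gave -0.17 for Gabra3, -0.30 for Gabra5, -0.023 for Gabrb1, -0.060 for Gabrb2 and 0.11 for Gabrd. Leaving out 1 mouse gave -0.042 to 0.054 for Gabra2, -0.012 to 0.13 for Gabrb1 and -0.095 to 0.11 for Gabrb2.

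For the interaction the count of 0 became 1 with quantile normalization and 3 with quality weights (3.39% and 13.6% of all genes, against 3.74%), the 3 passing the FDR of 5% (10.3% of all genes), and 0 to 3 when 1 mouse was left out. Gabrb1 was at -0.025 with median-of-ratios scaling, -0.040 with quantile normalization and -0.030 with the cortical covariate. Without mice above a cortical score of 5 the values were 0.079 for Gabra2, -0.19 for Gabra3, 0.044 for Gabra4, -0.048 for Gabra5, -0.32 for Gabrb1, -0.37 for Gabrb2 and 0.061 for Gabrd.

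Groups share mouse numbers, but mice of the same number did not deviate together (correlations of -0.41 to 0.43), so the numbers were not taken as pairs. With the replicate block, Gabra3 was at -1.68 and Gabra5 at -1.24 under vehicle (adjusted p = 0.0252 and 0.0244 by limma), the count stayed at 2 (17.7% of all genes, 15.4% at the FDR of 5%), the interaction count became 1 (Gabra4, with 4.28% of all genes) and Gabra2 in Brd1+/- mice under IMN was at -0.021. Exclusions that left out no mouse of a comparison gave no value, and all 4 groups in one fit is already the fit of the interaction. The number of mice, among them 2 WT vehicle mice with low cortical scores, and a depth not known for each library limit what could be seen.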
